A study of Mus musculus with 48 samples.

Results

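The sex difference of the wild-type (WT) mouse gastrocnemius, the large fast muscle of the calf, was measured by RNA-Seq in 6 female (XX) and 7 male (XY) animals. The 17626 autosomal genes that reached 10 reads in at least 20% of the 25 muscle libraries were the members described here, out of 56310 named genes in the count table. Genes on the sex chromosomes and in the mitochondrial genome were left out of the counts below, since an X or Y gene can differ with the number of its copies. The mice were C57BL/6J, 4 months old, and came from intercrosses of a CRISPR knock-in colony that had been backcrossed to C57BL/6J. The WT animals carried no knock-in allele. A parallel set of 12 muscle libraries (5 female, 7 male) came from mice heterozygous (Het) for the IGF-1R R1096C allele of the same colony, and 12 further libraries were labelled as liver of WT animals (6 of each sex), among the 48 libraries of the series. Each library was labelled as 1 biological replicate, so the p-values measure the spread between animals. No source used here gave the hormone status of the animals or the day or batch on which their RNA was prepared.

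Adult muscle differs between the sexes in mass, in the mix of its fibres and in fuel use. Sex steroids circulate at different levels in females and males, and among the genes known to respond to testosterone in several tissues are enzymes of polyamine metabolism. A muscle fibre is typed by the myosin heavy chain it uses: Myh7 marks slow oxidative (type I) fibres, Myh2 the oxidative fast (IIA) fibres, Myh1 the intermediate fast (IIX) fibres and Myh4 the glycolytic fast (IIB) fibres that fill most of the mouse gastrocnemius.

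The WT muscle libraries held 31917700 to 39469600 counts in females and 28479800 to 48829700 in males, to 6 digits. Xist, the RNA that coats the inactive X, stood at 122 to 220.4 CPM (counts scaled by library size) in the 6 female libraries and at 0 to 2.58 CPM in the 7 male ones, and the Y-linked Ddx3y at 0 to 0.214 and 48.3 to 90.8 CPM, so each of the 13 libraries matched its labelled sex. Mitochondrially encoded genes took 10.005% to 10.87% of the counts in females and 6.79% to 15.9% in males. At the filter's edge, 474 autosomal genes reached 10 reads in exactly 5 libraries and had a median mean level of 0.148 CPM, and the 657 that reached it in 4 libraries and were left out had 0.121 CPM. Among the kept genes, 272 reached 10 reads in no female WT library and 149 in no male WT library, and 22 and 21 of these were among the genes called below.

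Females and males differed in 2159 autosomal genes at an adjusted p of 0.05 or below (edgeR quasi-likelihood test, Benjamini-Hochberg adjustment over all 18323 genes kept), which is 12.2% of those tested. Of these, 1106 were higher in females (6.27% of the genes tested) and 1053 were higher in males (5.97%). These shares are the background for each list count given below. The groups did not overlap, every female library above every male one or the reverse, in 870 of the genes tested (4.94%), 434 of them higher in females (2.46%) and 436 higher in males (2.47%). The count fell to 1416 without female replicate 5, and to 583 with the summed slow fibre level of each library added as a covariate. That level was itself higher in females (median 2467 CPM against 973), so this fit cannot fully part it from sex. A call lost there need not mean a smaller difference. On the first principal component of the 17626 genes, which carried 22.3% of their variance, the 6 female libraries lay apart from the 7 male ones with no overlap, at a difference of 3.55 SD (exact two-sided permutation p = 0.000583, the smallest that 1716 splits allow, 0.00117 adjusted over the 2 components). The second component carried 16.6% and the sexes overlapped on it (exact permutation p = 0.222).

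**Figure D1:**
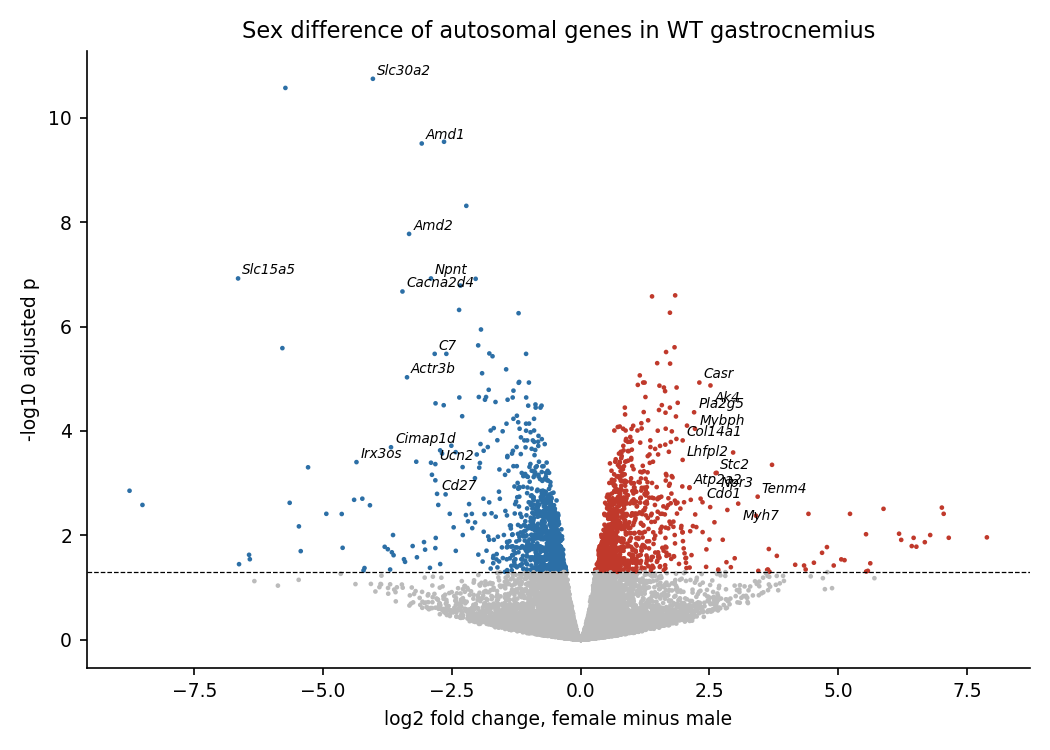
Each point is an autosomal gene in WT gastrocnemius, with the log2 fold change of females against males on the x axis and −log10 of the adjusted p on the y axis. The dashed line marks an adjusted p of 0.05, red points are the 1106 genes higher in females and blue points the 1053 higher in males, and names stand at the 24 genes with the largest changes that met the level and no-overlap conditions.

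The polyamine enzymes held some of the best separated differences, and each of the called ones was higher in males. Polyamines (putrescine, spermidine, spermine) are small cations that bind nucleic acids and are needed for growth. Of 11 autosomal genes of polyamine metabolism tested, 4 were higher in males, 0 were higher in females and 7 did not pass the test, and the median log2 difference (female minus male) of the list was −0.25, beside −0.02 over all autosomal genes. The 4 were Odc1 (ornithine decarboxylase, which makes putrescine), Amd1 and Amd2 (S-adenosylmethionine decarboxylase, which makes the donor for spermidine and spermine) and Smox (spermine oxidase, which turns spermine back into spermidine). They lie on 3 chromosomes in GRCm39: Odc1 at chr12:17594383-17601507, Amd1 at chr10:40162797-40178185, Amd2 at chr10:35584671-35587888 and Smox at chr2:131333416-131368431. The promoters of Odc1, Amd1 and Smox are shown because these 3 genes stood apart together. Each is the 250 bases before the RefSeq start in GRCm38.p6, on the strand of the gene. The positions are chr12:17544623-17544872 (plus) for Odc1, chr10:40302189-40302438 (minus) for Amd1 and chr2:131491612-131491861 (plus) for Smox. Capitals mark GC boxes, the letters GGGCGG or their reverse complement.
Odc1: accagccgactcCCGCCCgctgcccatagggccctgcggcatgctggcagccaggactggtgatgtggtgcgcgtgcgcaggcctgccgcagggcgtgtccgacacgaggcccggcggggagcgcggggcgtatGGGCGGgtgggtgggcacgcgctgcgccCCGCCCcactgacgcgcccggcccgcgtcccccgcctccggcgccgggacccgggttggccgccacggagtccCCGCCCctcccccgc
Amd1: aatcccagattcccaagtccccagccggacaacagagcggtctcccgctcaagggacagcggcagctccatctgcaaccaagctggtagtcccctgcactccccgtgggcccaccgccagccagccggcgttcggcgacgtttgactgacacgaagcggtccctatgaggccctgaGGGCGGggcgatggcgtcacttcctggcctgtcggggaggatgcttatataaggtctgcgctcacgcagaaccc
Smox: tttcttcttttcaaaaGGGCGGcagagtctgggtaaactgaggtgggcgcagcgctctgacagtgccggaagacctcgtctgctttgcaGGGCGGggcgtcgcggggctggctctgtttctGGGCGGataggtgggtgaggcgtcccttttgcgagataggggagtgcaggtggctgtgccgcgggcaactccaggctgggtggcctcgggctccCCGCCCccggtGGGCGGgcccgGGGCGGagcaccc
The letters AGAACA, the core of the element that the glucocorticoid receptor binds, were searched on both strands and occurred 0 times in each of the 3 windows, and GC boxes occurred 4, 1 and 6 times for Odc1, Amd1 and Smox. Among 27025 RefSeq promoters of the same length, 16.2% held AGAACA and 32.9% held a GC box on either strand. A match is a description of the letters in this window alone.

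Odc1 was at 68.8, 81.9 and 119 CPM (lowest, median, highest) in females and at 344, 414 and 706 CPM in males. The highest female library was far below the lowest male one. The difference was −2.33 ± 0.18 (log2, SE; adjusted p = 1.64e-07), a 5.05-fold higher level in males. Amd1 was the most abundant of the 4, at 189, 225 and 326 CPM in females and 1467, 2165 and 2586 CPM in males. Here too the sexes did not overlap, with a difference of −3.09 ± 0.16 (adjusted p = 3.11e-10), or 8.49-fold. Smox ran from 107 over a median of 118 to 140.3 CPM in females and from 542 over 772 to 964 CPM in males, a difference of −2.65 ± 0.14 (adjusted p = 2.88e-10) and 6.29-fold. Amd2, a close copy of Amd1, was at 1.16, 1.51 and 2.93 CPM in females and at 14.0, 17.0 and 22.6 CPM in males (−3.33 ± 0.22, adjusted p = 1.68e-08). Its level is uncertain, since 72.9% of its 3119 stretches of 100 bases also occur in Amd1 and reads could have been assigned to either gene. In turn, 32.9% of the stretches of Amd1 also occur in Amd2, and reads of these are ambiguous for Amd1 too.

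The remaining genes of the pathway did not pass the test. Srm, which makes spermidine, was at 7.28 to 9.91 CPM in females and 9.13 to 12.3 CPM in males, a difference of −0.25 (adjusted p = 0.251). The X-linked Sms, which makes spermine, differed by −0.31 (adjusted p = 0.191), and the X-linked Sat1, which acetylates spermidine and spermine for export, by −0.01 (adjusted p = 0.972). The antizymes Oaz1 and Oaz2, which target ornithine decarboxylase for degradation, their inhibitors Azin1 and Azin2, and the oxidase Paox were not called either. The 4 calls held under each of the 28 alternative settings run.

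**Figure D2:**
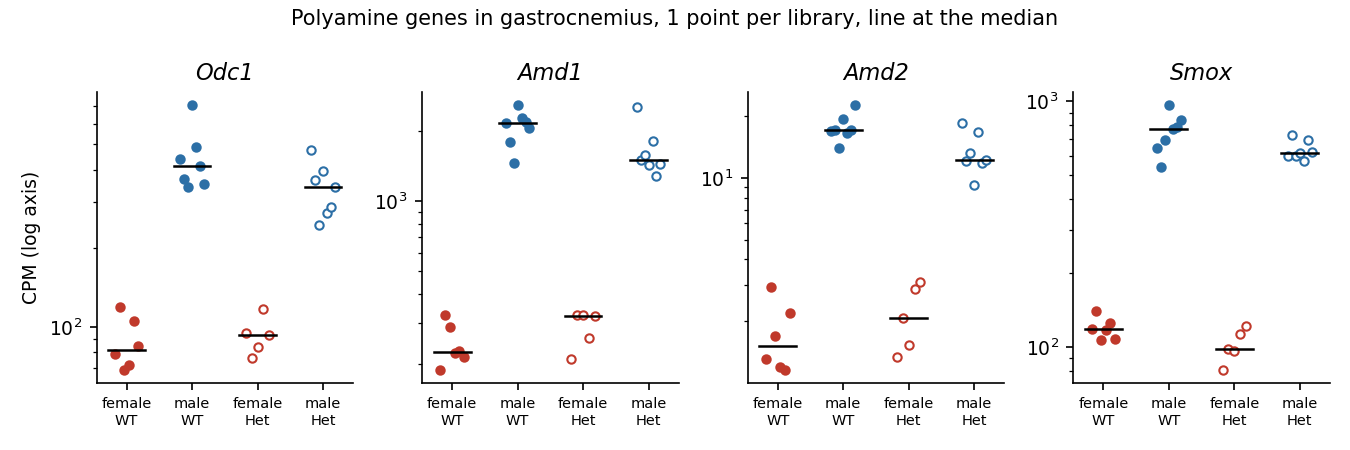
CPM on a log axis of Odc1, Amd1, Amd2 and Smox in each gastrocnemius library, filled circles for WT and open circles for Het, red for female and blue for male, with a line at each median. In each panel the 6 female WT libraries lie below the 7 male WT libraries, for Smox at 107 to 140.3 against 542 to 964 CPM, and the Het libraries fall apart by sex in the same way.

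By size of difference, the genes named here were the 12 in each direction with the largest log2 change among the 724 called genes with a mean level above 1 on the log2 CPM scale and no overlap between the sexes. Beside Amd1 and Amd2, 10 others were higher in males. Slc15a5, a member of the proton-coupled oligopeptide transporter family, was at 0, 0.109 and 0.760 CPM in females and at 9.39, 20.8 and 29.1 CPM in males (−6.65 ± 0.51, adjusted p = 1.2e-07). All 6 female libraries together held 43 of its reads, so it was close to undetected in female muscle. Slc30a2, a zinc transporter, was at 1.52, 2.06 and 2.34 CPM in females and 25.9, 30.7 and 47.6 CPM in males, and had the smallest adjusted p of the 24 (−4.03 ± 0.17, adjusted p = 1.79e-11). Its locus overlaps that of Extl1.

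Cacna2d4, an auxiliary subunit of voltage-gated calcium channels, was at 0.456 to 1.605 CPM in females and 9.41 to 15.8 CPM in males (−3.46 ± 0.28, adjusted p = 2.13e-07). Actr3b, an actin-related protein, was at 1.31 to 8.005 CPM against 27.1 to 50.7 CPM (−3.37 ± 0.36, adjusted p = 9.36e-06). Npnt (nephronectin, an extracellular integrin ligand) was at 3.37 to 5.72 CPM against 21.1 to 48.8 CPM (−2.91 ± 0.22, adjusted p = 1.2e-07). No overlap was a condition for naming these 3 genes, and the gap between the sexes was wide in each. C7, a component of the complement membrane attack complex, was at 0.484 to 1.71 CPM in females and 6.09 to 12.0 CPM in males (−2.83 ± 0.28, adjusted p = 3.33e-06). Ucn2, a peptide ligand of the corticotropin-releasing hormone receptor 2, was at 0.490 to 1.08 CPM against 1.43 to 9.02 CPM (−2.82 ± 0.44, adjusted p = 0.000431), the narrowest gap of these.

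Cimap1d was at 1.90 to 13.1 CPM in females and at 24.0 to 238 CPM in males (−3.68 ± 0.53, adjusted p = 0.000205). Male replicate 4 held the highest value, and the difference was −3.02 without it. The last pair in this direction share their loci with other genes, as do Slc30a2, Cacna2d4 and Cimap1d. Lrtm2, at the locus of Cacna2d4, had a mean of 1.15 CPM in females and 1.88 CPM in males. Gm47163, at that of Cimap1d, had 0.169 and 0.845 CPM. The strand used in counting is not given in the sources used here. Irx3os, antisense to Irx3, was at 0 to 0.889 CPM in females against 3.21 to 5.78 CPM in males (−4.35 ± 0.68, adjusted p = 0.000395). Irx3 itself had a mean of 2.16 CPM in females and 7.44 CPM in males. Cd27, a receptor of the TNF family known from lymphocytes, was at 0.138 to 1.54 CPM against 2.07 to 6.13 CPM (−2.79 ± 0.51, adjusted p = 0.0016), inside the locus of Vamp1. Vamp1 had a mean of 33.0 CPM in females and 51.8 CPM in males. The part of these overlapping genes in the calls was not tested. Summed lymphocyte markers also lay lower in females, at a median of 65.0 CPM against 239.9 CPM, and their part in Cd27 was not tested.

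The 12 genes higher in females included hormone and calcium signalling genes. Casr, the calcium-sensing receptor, was at 18.1, 24.0 and 27.97 CPM in females and at 1.69, 4.24 and 7.13 CPM in males (2.31 ± 0.25, adjusted p = 1.18e-05). Stc2 (stanniocalcin 2, a secreted glycoprotein) was at 6.24, 9.09 and 11.7 CPM against 0.214, 1.37 and 3.61 CPM (2.62 ± 0.43, adjusted p = 0.00064). Npr3, the clearance receptor for natriuretic peptides, was at 6.32 to 68.7 CPM in females and 2.00 to 5.36 CPM in males (2.64 ± 0.43, adjusted p = 0.000634). For Npr3 the highest value was that of female replicate 1, and the difference was 1.88 without it (adjusted p = 0.000354).

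Metabolic enzymes formed another set. Ak4, a mitochondrial adenylate kinase, was at 9.58, 15.4 and 19.005 CPM in females and 1.15, 2.71 and 4.09 CPM in males (2.52 ± 0.28, adjusted p = 1.34e-05). Cdo1 (cysteine dioxygenase, the first step from cysteine to taurine) was at 9.24 to 40.7 CPM against 0.469 to 7.76 CPM (2.37 ± 0.46, adjusted p = 0.00232). Pla2g5, a secreted phospholipase A2, was at 10.2 to 20.7 CPM against 1.78 to 6.49 CPM (2.20 ± 0.27, adjusted p = 4.38e-05). That none of the 3 overlapped between the sexes was a condition for naming them.

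Among structural genes, Mybph (myosin binding protein H) was at 207, 271 and 336 CPM in females and at 34.3, 42.6 and 153 CPM in males (2.22 ± 0.30, adjusted p = 9.09e-05). Male replicate 4 again held the highest male value, and the difference was 2.66 without it. Tenm4 (teneurin 4, an adhesion receptor) was at 1.44, 6.42 and 21.6 CPM in females against 0, 0.861 and 1.30 CPM in males (3.44 ± 0.64, adjusted p = 0.00181). Without female replicate 1 the difference was 2.78. Col14a1, a collagen that binds to fibrils, was at 6.18 to 26.3 CPM against 2.78 to 5.78 CPM (1.98 ± 0.28, adjusted p = 0.000151). Lhfpl2 was at 3.04 to 9.92 CPM against 1.03 to 2.77 CPM (1.98 ± 0.30, adjusted p = 0.000358). Myh7 and Atp2a2, the other two of the 12, belong to the slow fibre genes. Of these 24 genes, 18 passed the threshold in all 28 alternative settings, and Tenm4, Npr3, Cdo1, Lhfpl2, Myh7 and Atp2a2 lost it with the slow fibre level as a covariate, Tenm4 also with the adipocyte level (adjusted p = 0.113).

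Slow fibre genes were higher in female muscle: 11 of the 13 tested were called, 0 were lower, and their median log2 difference was 1.65. Myh7, the slow myosin heavy chain, was at 171, 452 and 1532 CPM in females and 8.28, 75.1 and 167 CPM in males (3.06 ± 0.60, adjusted p = 0.00246). Every female library was above every male one, as the rule for naming by size required, the closest pair lying at 171 and 167 CPM. Atp2a2, the calcium pump of slow fibres and heart (SERCA2), was at 254, 616 and 1503 CPM against 63.6, 181 and 221 CPM (2.11 ± 0.37, adjusted p = 0.00123). Casq2, the slow and cardiac calsequestrin that stores calcium, was at 16.2, 46.6 and 64.9 CPM against 5.13, 10.3 and 16.3 CPM (2.07, adjusted p = 7.89e-05). For Casq2 the lowest female library fell just under the highest male one. The slow troponin I Tnni1 was at 40.4, 106 and 355 CPM in females against 8.24, 33.9 and 54.0 CPM in males (2.18, adjusted p = 0.00663), with overlap. Myh7b, a further slow myosin, differed by 1.06 (adjusted p = 0.263) and the pump inhibitor Pln by −0.36 (adjusted p = 0.743).

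The slow fibre genes differed widely between animals of 1 sex. Their summed level ran from 1020 over a median of 2467 to 6870 CPM in the 6 females and from 257 over 973 to 1129 CPM in the 7 males. Female replicate 1 held the highest value, and without it 6 of the 13 were called and Myh7 differed by 2.44 (adjusted p = 0.00607). Without male replicate 5, 7 were called, and with the summed adipocyte level as a covariate 5. In bulk tissue, more slow fibres and more slow fibre RNA per fibre cannot be told apart, and the same holds for each cell type named below. How the muscle was divided at dissection is not given in the sources used here, and its part in these values was not tested.

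Fast fibre genes were called in both directions. Of 15 fast fibre genes, 3 were higher in females and 5 in males, with a median of −0.15. Myh2, the IIA myosin, was at 973, 1762 and 2562 CPM in females and 236, 495 and 739.9 CPM in males (1.85 ± 0.23, adjusted p = 5.27e-05), with no overlap. Myh1, the IIX myosin, was at 1838, 3083 and 4538 CPM against 921, 1115 and 1960 CPM (1.34 ± 0.21, adjusted p = 0.000408), with overlap. Myh4, the IIB myosin and by far the most abundant, was at 51039, 54979 and 68184 CPM against 53540, 64506 and 70741 CPM and did not pass the test (−0.11, adjusted p = 0.622). Atp2a1, the calcium pump of fast fibres (SERCA1), was the third gene higher in females, at 21676, 24076 and 30569 CPM against 12722, 19212 and 22621 CPM (0.51 ± 0.15, adjusted p = 0.0288), with overlap. Its call was lost without female replicate 2, 3 or 5 or male replicate 1 or 5 (adjusted p 0.0523 to 0.0658). The fast troponin T Tnnt3 was lower in every female library, at 14820 to 20918 CPM against 21529 to 28245 CPM in males (−0.58 ± 0.12, adjusted p = 0.00386). The fast light chain Myl1, the fast troponin I Tnni2, the calcium buffer Pvalb and Myoz1 were also higher in males, and the 5 calls in this direction fell to 0 with the slow fibre level as a covariate.

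Set per length of coding sequence, so that the 4 myosins can be compared with each other, Myh4 made up 91.1% ± 3.50 (SD, n = 6) of their sum in females and 97.1% ± 1.04 (n = 7) in males. Myh1 made up 5.12% ± 1.75 against 1.98% ± 0.742, Myh2 2.89% ± 1.15 against 0.779% ± 0.292, and Myh7 0.925% ± 0.868 against 0.106% ± 0.0825. Set per summed exon length of the gene, which is longest for Myh7, the Myh4 shares were 93.2% and 97.9%. Both sexes thus had a muscle of mostly IIB myosin RNA.

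**Figure D3:**
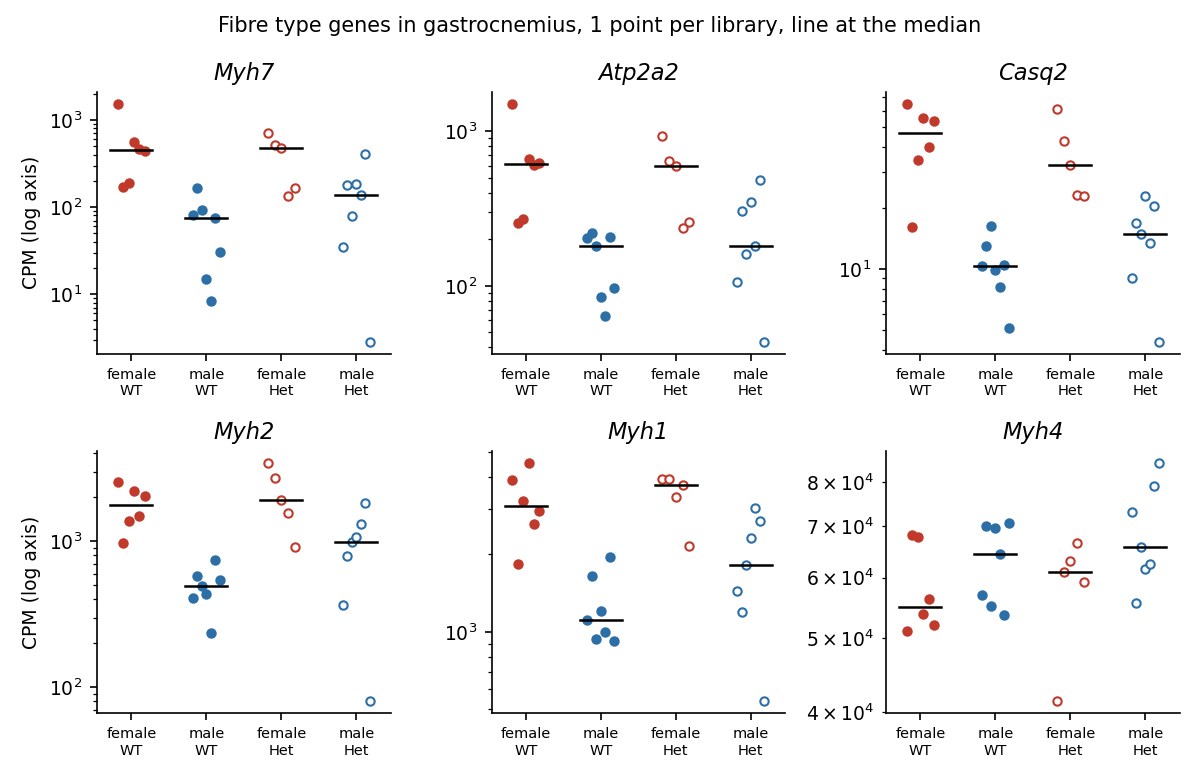
CPM on a log axis of Myh7, Atp2a2, Casq2 and the fast myosins Myh2, Myh1 and Myh4 in each gastrocnemius library, filled circles for WT and open circles for Het, red for female and blue for male, with a line at each median. Myh2 separates the WT sexes at 973 to 2562 against 236 to 739.9 CPM, Myh4 overlaps, and the Het sexes overlap in most panels.

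Hormone receptors were measured because circulating hormones act through them. Of 14 autosomal receptors tested, 6 were higher in females and 0 in males, with a median of 0.64. Nr3c2, the mineralocorticoid receptor, was at 11.03, 13.1 and 16.2 CPM in females and 3.71, 5.82 and 8.85 CPM in males (1.21 ± 0.19, adjusted p = 0.000464). Esr1, the estrogen receptor alpha, was at 25.6, 34.3 and 42.0 CPM against 11.8, 18.6 and 23.8 CPM (0.89 ± 0.15, adjusted p = 0.000938). Thrb, a thyroid hormone receptor, was at 24.0 to 35.6 CPM against 15.0 to 21.4 CPM (0.73, adjusted p = 0.00141). These 3 did not overlap between the sexes. The glucocorticoid receptor Nr3c1 (0.69, adjusted p = 0.024) and the growth hormone receptor Ghr (0.50, adjusted p = 0.0201) overlapped. The calls in this list fell to 4 after the correction for gene length and GC content, where Ghr was at 0.31 (adjusted p = 0.0825), and to 3 with the slow fibre level as a covariate. Without female replicate 3, 4 or 5 the call of Nr3c1 was lost (adjusted p 0.0528 to 0.0639), and without female replicate 3 that of Ghr (adjusted p = 0.0551).

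Igf1r, the receptor that carries the knock-in allele in the Het animals (chr7:67601518-67883416 in GRCm39), was at 19.3, 27.1 and 35.9 CPM in WT females and 12.8, 18.5 and 23.6 CPM in WT males. The difference was 0.60 ± 0.15 (adjusted p = 0.0138) with overlap between the sexes. It did not pass after a correction for gene length and GC content (0.37, adjusted p = 0.109) or with the slow fibre level as a covariate (0.58, adjusted p = 0.163). Its ligand Igf1 (chr10:87693642-87772904) was lower in females, at 9.36, 17.0 and 27.1 CPM against 14.3, 31.9 and 41.9 CPM (−0.83 ± 0.23, adjusted p = 0.0234). This call was lost with the mitochondrial share of the reads as a covariate (−0.61, adjusted p = 0.0577) and with the slow fibre level (−0.73, adjusted p = 0.265).

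Of 26 insulin and IGF signalling genes, 7 were higher in females and 1, Igf1, was higher in males, with a median of 0.33. The list holds ligands, receptors and binding proteins as well as downstream genes, and Igf1r is also in the receptor list. Grb10, an adaptor that dampens signalling from both receptors, was at 48.5, 55.5 and 58.8 CPM in females and 18.1, 24.7 and 31.6 CPM in males (1.15 ± 0.12, adjusted p = 8.6e-06). Pik3r1, the regulatory subunit of PI3-kinase, was at 43.5 to 54.9 CPM against 20.8 to 36.7 CPM (0.92, adjusted p = 0.000161). Foxo3, a transcription factor held out of the nucleus by AKT, was at 34.3 to 47.0 CPM against 17.9 to 24.96 CPM (0.86, adjusted p = 4.82e-05). Igf2r, which clears IGF-2, was also separated between the sexes (0.89, adjusted p = 0.00195). The adaptor Grb14 (1.03, adjusted p = 0.0291) and the catalytic subunit Pik3ca (0.44, adjusted p = 0.0192) overlapped. The call of Grb14 was lost without female replicate 1, 3, 4 or 5 or male replicate 1, 2, 3 or 5. The list's calls towards females fell to 5 after the length and GC correction and to 4 with the slow fibre level as a covariate. The insulin receptor Insr was at 78.6 to 108 CPM against 64.6 to 97.9 CPM and did not pass (adjusted p = 0.202).

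Of 20 genes of muscle mass and atrophy, 4 were higher in females and 2 in males, with a median of 0.13. Sesn1, a sestrin that restrains mTORC1, was at 39.4, 44.0 and 53.2 CPM in females and 14.6, 17.0 and 21.5 CPM in males (1.39 ± 0.11, adjusted p = 2.64e-07). Acvr2b, a receptor for myostatin and activins, was at 4.84, 7.10 and 10.7 CPM against 1.06, 2.39 and 4.00 CPM (1.65 ± 0.28, adjusted p = 0.000889). Neither gene overlapped between the sexes. Eif4ebp1, a brake on translation, was lower in females at 19.1 to 42.4 CPM against 36.8 to 84.6 CPM (−0.97, adjusted p = 0.00175), as was the myogenic factor Myod1 (−0.79, adjusted p = 0.0109). Myostatin (Mstn, −0.18, adjusted p = 0.683) and the ubiquitin ligases of atrophy Fbxo32 (−0.18, adjusted p = 0.517) and Trim63 (−0.23, adjusted p = 0.476) did not pass the test.

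Genes of lipid synthesis and fatty acid use were called mostly towards females. Of 17 lipogenesis genes, 7 were higher in females and 0 in males, with a median of 0.64. Gpam, which starts triglyceride synthesis, was at 268, 322 and 372 CPM in females and 109, 144 and 192 CPM in males (1.21 ± 0.13, adjusted p = 1.18e-05), with no overlap. Scd1, the desaturase that makes oleate, was at 149, 434 and 1006 CPM against 28.2, 52.0 and 234 CPM (2.52 ± 0.50, adjusted p = 0.00287), with overlap. Fasn (fatty acid synthase, 1.73), Elovl6 (2.33), Dgat2 (1.16), Acaca (0.99) and Fads1 (0.76) were the others. The call of Fads1 was lost without female replicate 1, 3, 4, 5 or 6 or male replicate 1, 3, 5 or 6. After the length and GC correction 7 genes of the list were called higher in females and 2 in males, and DESeq2 called 9 and 1. The summed level of 8 adipocyte markers was 86.9 to 620 CPM in females (median 283) and 24.2 to 353 CPM in males (median 77.6), none of the 8 was at 0 in any WT library, and 3 were called, Lep (3.40), Adipoq (2.05) and Plin1 (2.03). With that sum as a covariate, 6 of the lipogenesis genes were called higher in females, and with the slow fibre level 2. The list's medians there were 0.46 and 0.43, and Fads1 was called in neither fit (adjusted p = 0.313 and 0.644).

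Of 33 genes of fatty acid uptake and oxidation, 9 were higher in females and 1 in males, with a median of 0.17. Cd36, the fatty acid transporter, was at 242, 306 and 377 CPM in females and 95.4, 172 and 221 CPM in males (0.88 ± 0.17, adjusted p = 0.00226). Ppara, the nuclear receptor that drives fatty acid oxidation genes, was at 5.08, 9.81 and 14.9 CPM against 1.70, 2.29 and 5.78 CPM (1.70 ± 0.32, adjusted p = 0.00194). Hadha, a subunit of the mitochondrial trifunctional protein, was at 376 to 459 CPM against 226 to 356 CPM (0.54, adjusted p = 0.00628). Ucp3, a mitochondrial carrier of muscle, was the 1 gene higher in males, at 386, 427 and 725 CPM against 174, 216 and 282 CPM in females (−1.19 ± 0.16, adjusted p = 9.05e-05). The calls towards females fell from 9 to 5 after the length and GC correction and to 0 with the slow fibre level as a covariate. The list's median was 0.18 and 0.06 in these settings.

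Of 82 oxidative phosphorylation genes, 18 were higher in males and 1, Uqcrc2 (0.57, adjusted p = 0.0225), in females, with a median of −0.31. Cox8b, a muscle isoform of a cytochrome oxidase subunit, had the clearest separation at 142, 168 and 197 CPM in females and 211, 336 and 386 CPM in males (−0.90 ± 0.15, adjusted p = 0.000589). The count higher in males was unsteady, from 5 without female replicate 5 to 37 without male replicate 2, and also 11 without female replicate 3, 10 without female replicate 6, 11 without male replicate 5 and 28 without male replicate 7. It was 11 after the length and GC correction and 1 with the slow fibre level as a covariate. The list's median was −0.26 and −0.31 in these settings. In glycolysis and glycogen metabolism, 2 of 26 genes were higher in females and 3 in males, with a median of −0.12. Over all autosomal genes these shares were 6.27% and 5.97%, so the list held few calls beyond the background. Gpi1, glucose-6-phosphate isomerase, was at 897, 980.3 and 1172 CPM in females and 1389.8, 1499 and 1661 CPM in males (−0.61 ± 0.10, adjusted p = 0.000634). Ldhb, the lactate dehydrogenase subunit of oxidative tissues, was at 114, 195 and 321 CPM against 61.0, 85.4 and 163 CPM (1.15, adjusted p = 0.00374).

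**Figure D4:**
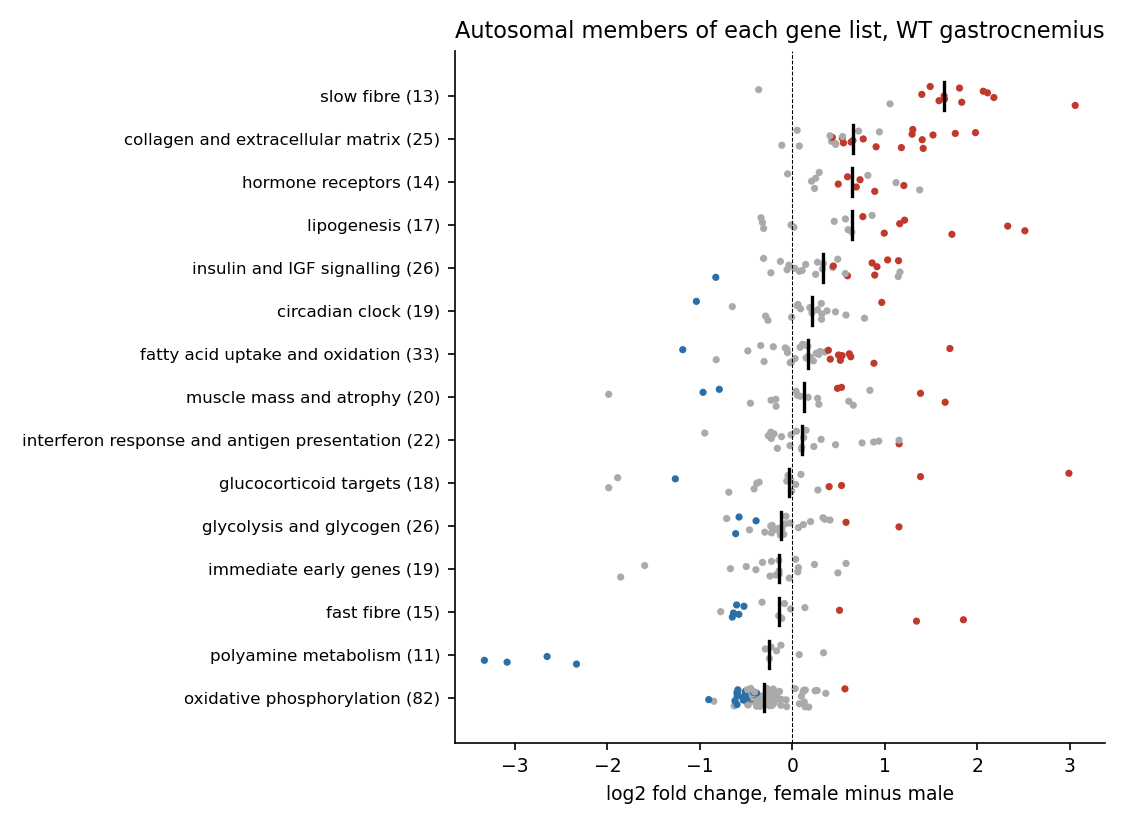
Log2 fold change of females against males in WT gastrocnemius for the autosomal members of each gene list, with the number tested in brackets, red for genes called higher in females, blue for those called higher in males and grey for the rest. The vertical bar is the list's median, from 1.65 for slow fibre genes to −0.31 for oxidative phosphorylation, and the polyamine list holds 4 blue points below −2 and 7 grey ones near 0.

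Extracellular matrix genes were higher in females in 15 of 25 cases and in males in 0, with a median of 0.66. Lum (lumican, a proteoglycan that spaces collagen fibrils) was at 20.1, 35.5 and 40.5 CPM in females and 7.55, 12.0 and 15.7 CPM in males (1.52 ± 0.19, adjusted p = 3.96e-05). The gelatinase Mmp2 was at 16.6, 32.1 and 39.2 CPM against 7.86, 11.4 and 15.0 CPM (1.30 ± 0.20, adjusted p = 0.000303). These 2 did not overlap between the sexes, while Fn1 (1.40, adjusted p = 0.000388), Postn (1.76, adjusted p = 0.00158), Tnc (1.98, adjusted p = 0.00873) and Col1a1 (1.42, adjusted p = 0.0146) did. Markers of other cell types moved beside them. The summed level of 5 markers of fibro-adipogenic cells was 422 to 674.1 CPM in females and 278 to 462 CPM in males (3 of 5 called), and that of 5 tendon markers 41.4 to 287 CPM and 13.8 to 87.5 CPM (Comp, Fmod and the X-linked Tnmd called). Their part in the matrix genes was not tested. With the slow fibre level as a covariate, 4 of the 15 calls were left, at a list median of 0.58.

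Among the other marker lists, 3 of 8 macrophage markers (Adgre1, Mrc1, Csf1r) and 3 of 7 nerve and Schwann cell markers (Mbp, Prx, Pmp22) were higher in females. With the adipocyte level as a covariate, Mbp (adjusted p = 0.13), Prx (adjusted p = 0.222), Pmp22 (adjusted p = 0.23) and Csf1r (adjusted p = 0.158) did not pass, and Mbp, Prx, Pmp22, Csf1r and Mrc1 did not with the slow fibre level. Each of Mbp, Prx, Pmp22 and Csf1r was also lost without female replicate 6. The call of Csf1r was lost as well without female replicate 3 or 5 or male replicate 1, 2, 4 or 6, and with the mitochondrial share as a covariate. Of 7 neuromuscular junction genes, Chrna1 (0.67), Chrnd and Etv5 were higher in females and Chrne, the adult receptor subunit, was higher in males (−0.84). The call of Chrnd was lost in 18 of the 28 alternative settings and that of Etv5 in 12. The summed myofibre markers were at 114833 to 152942 CPM in females and 140018 to 170005 CPM in males. Endothelial markers had 1 of 6 called, higher in males, and 5 at an unadjusted p under 0.05 in the edgeR test, at a list median of 0.28. Satellite cell (4), lymphocyte (8) and hepatocyte (7) markers had 0 called in that test, with 0, 2 and 0 at an unadjusted p under 0.05. The hepatocyte sum stayed at 2.35 to 110.4 CPM over the 13 libraries, with 4 of its 7 markers at 0 in at least 1 of them. The lymphocyte sum was 23.2 to 319 CPM in females (median 65.0) and 101 to 477 CPM in males (median 239.9), at a list median of −2.30. The erythroid markers had 1 of 5 called, the X-linked Alas2, and 3 of the 4 autosomal ones had an unadjusted p under 0.05. Their sum was 113 to 968 CPM in females (median 316) and 65.1 to 440.1 CPM in males (median 112).

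Of the remaining lists, the clock, interferon and immediate early genes held few calls, beside 6.27% of all autosomal genes called higher in females and 5.97% higher in males. The glucocorticoid targets held more towards females, 4 of 18. Of 19 clock genes, Bhlhe40 was higher in females (0.97 ± 0.17, adjusted p = 0.000933) and its paralog Bhlhe41 was lower, at 26.8, 42.8 and 45.9 CPM against 59.9, 79.1 and 102 CPM in males (−1.04 ± 0.15, adjusted p = 0.000151). Both encode repressors in the clock loop. Of 18 glucocorticoid targets, Lcn2, Sesn1, Klf15 and Klf9 were higher in females and the metallothionein Mt1 was higher in males, with a median of −0.03. Those 4 calls fell to 1 without male replicate 1 and to 2 without female replicate 6, and the calls towards males rose to 3 without male replicate 6. Of 22 interferon and antigen presentation genes, 1 was called, Ifit3, at 5.02 to 8.86 CPM in females against 1.70 to 3.59 CPM in males (1.15 ± 0.22, adjusted p = 0.00236). Of 19 immediate early genes, 0 were called by edgeR, 2 had an unadjusted p under 0.05 and 1 was called by DESeq2, at a median of −0.15.

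The same contrast was available in animals that share no library with the WT set. In the Het gastrocnemius, 1668 autosomal genes differed between 5 females and 7 males (9.46% of those tested, 832 or 4.72% higher in females and 836 or 4.74% higher in males). Of the WT calls, 957 were called in the same direction in Het, 44.3% of the WT calls and 57.4% of the Het calls, and 0 were called in the opposite one. The sign was shared by 2121 of the 2159 WT calls (98.2%), beside 73.8% of all autosomal genes. The Het count was smaller without female Het replicate 2 (814), 3 (919) or 4 (866). Male Het replicate 4 carries the animal number of female WT liver replicate 3. Each held the sex markers of its own label, Ddx3y at 29.4 CPM and Xist at 7.24 CPM in the male library against 0 and 648 CPM in the female one, and without the male library 1583 genes were called in Het.

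**Figure D5:**
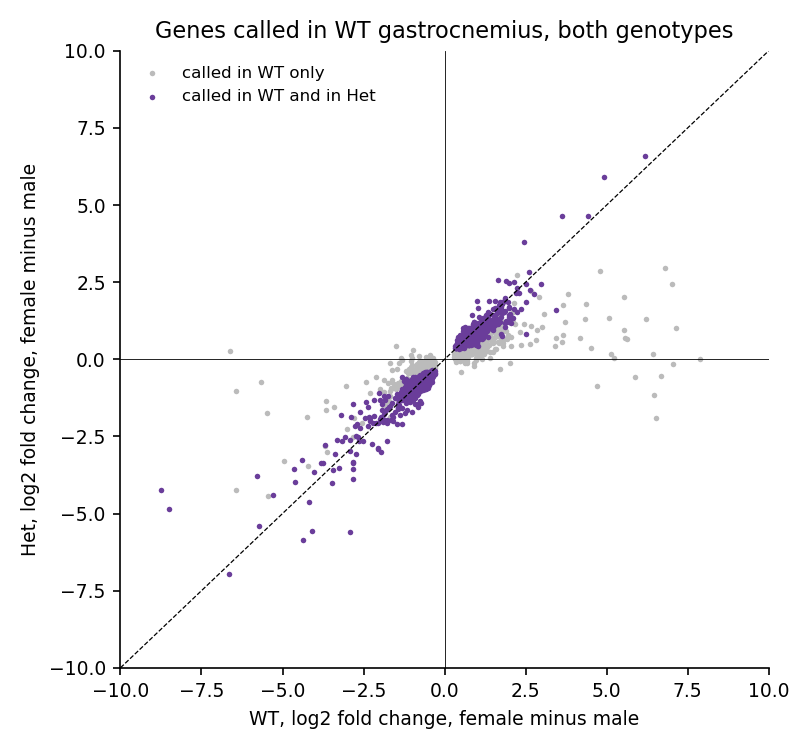
Each of the 2159 points is a gene called between the sexes in WT gastrocnemius, with its log2 fold change of females against males in WT on the x axis and in Het on the y axis, and a dashed line where both are equal. Purple points are the 957 genes also called in Het, in the same direction, and 98.2% of all points lie in the lower left and upper right areas.

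The polyamine genes were called in both genotypes, with Het differences of −1.87 for Odc1 (adjusted p = 2.13e-06), −2.52 for Amd1 (adjusted p = 8.62e-08) and −2.64 for Smox (adjusted p = 5.13e-10). Of the 24 genes named by size, 20 were also called in Het in the same direction, among them Slc15a5 (−6.97), Slc30a2 (−3.64), Casr (2.13), Ak4 (2.45) and Mybph (2.32). The other four were Myh7 (1.46, adjusted p = 0.18), Npr3 (0.51, adjusted p = 0.233), Atp2a2 and Cd27 (−1.92, adjusted p = 0.0511). Of the 13 slow fibre genes, 1 was called in Het, Casq2 (1.33, adjusted p = 0.0137), at a list median of 0.95. Extracellular matrix genes had 7 calls in Het, lipogenesis genes 4 towards females and 1 towards males, and receptors 6, while Igf1r (0.31, adjusted p = 0.182) and Igf1 (−0.26, adjusted p = 0.271) were not called. None of these contrasts in call is a shown difference between the genotypes: the test of the sex difference in WT against that in Het called 0 of the 17626 genes with edgeR and 0 with DESeq2, and 599 and 630 genes had an unadjusted p under 0.05.

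In WT liver, 1652 of 15275 autosomal genes tested in both tissues differed between the sexes (10.8%). The library labelled liver male WT replicate 5 held muscle transcripts and was left out here. Of the WT muscle calls, 1929 were tested in liver, where 158 were called in the same direction and 78 in the opposite one. The sex difference itself differed between the tissues in 1875 genes (12.3%), and in 833 with that library kept. Of the animals, 9 gave both tissues, which this fit ignored, and 1703 genes were called with the animal as a block. Without female WT liver replicate 3, the library with the shared number, 1865 were called. In 1208 of the 1875 genes the sex difference lay further towards females in muscle and in 667 further towards males, or 958 and 821 with RLE size factors. For Odc1 the liver difference was −0.36 (adjusted p = 0.0647) and muscle differed from liver by −1.90 (adjusted p = 9.86e-06). Amd1 differed by −0.40 in liver and by −2.60 between the tissues (adjusted p = 9.79e-08). Smox differed by 0.24 in liver and by −2.79 between the tissues (adjusted p = 7.83e-07).

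The sex difference also varied with transcript length. Over the 17626 genes in 10 groups by the summed length of their exons, the median log2 difference rose from −0.33 in the shortest (56 to 1309 bases) to 0.19 in the longest (12010 to 123193 bases), and in Het from −0.20 to 0.17. In the shortest group 0.454% of the genes were called higher in females and 4.08% higher in males, and in the longest 13.8% and 2.61%. The background for a gene list thus depends on the length of its genes. The receptor list had a median exon length of 8873.5 bases, beside 5297 over all autosomal genes. The median level of the longest group minus that of the shortest, on the log2 scale after each gene was centred on its mean over the 13 libraries, was −0.00714 to 0.236 in the 6 female libraries and −0.204 to 0.00294 in the 7 male ones, so the libraries nearly separated by sex on this measure alone. After each library was corrected for length and GC content, 2023 genes were called (857 higher in females, 1166 higher in males), 71.4% of the first calls were among them and 0 changed sign. The part of RNA quality or library preparation in this pattern was not tested.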

How the data were processed

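Per the labels of all libraries, RNA was extracted with the PureLink RNA Mini Kit and libraries were made after polyA enrichment. The study's methods describe the isolation, with TRIzol before the kit, for tissue of females and do not mention males, so whether both sexes were handled alike is not given. Per the labels, the authors aligned reads to GRCm39 and counted them per gene, and the submitters' processing notes name STAR 2.7.11b and featureCounts 2.0.6. The deposited values were raw counts per gene, not normalized. The annotation, strand setting and handling of reads with several matches are not given in the sources used here. In WT muscle 79.4% of the counts from 1 to 100 were even, so the number of sequenced fragments may be lower than the counts. Totals per library give the depth, and no library was dropped in WT muscle.

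Genes with 10 reads or more in at least 5 of the 25 muscle libraries were kept. They were normalized by TMM and tested with edgeR 4.0.16 (R 4.3.3) by the quasi-likelihood test, sex as the only term, in the 13 WT muscle libraries, as female minus male. The p-values were adjusted over 18323 genes by the Benjamini-Hochberg method, and the autosomal ones were reported. CPM used TMM library sizes. The Het contrast was fitted in the 12 Het libraries. The interaction of sex with genotype was fitted over all 25 muscle libraries, and that of sex with tissue over WT muscle and liver, leaving out male WT liver replicate 5 (a library that held muscle transcripts). DESeq2 1.42.0 was an alternative. Principal components used log2 (CPM + 2), scaled per gene.

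Genes named by size were the 12 in each direction with the largest change, among called autosomal genes with a mean log2 CPM over 1 and no overlap between the sexes. Other named genes came from gene lists. The members and lists were chosen with earlier results of these data known. Positions and exon lengths came from GENCODE M39 and promoters from RefSeq on GRCm38.p6. The fit was tested on simulated data with known changes. Covariates for summed adipocyte and slow fibre levels, a lowess correction (span 0.3) for exon length and GC content, halved counts, and myosin shares per coding length were chosen after seeing the data.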

Additional observations from a re-analysis of the deposited data

Results flagged for a closer look

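In 15 of 82 groups of values from WT muscle checked with Dixon's test at the 95% level, 1 library lay far from the rest of its sex. The rate of 1 in 20 groups holds for independent groups of normally distributed values. These groups share libraries and some of their values lie near 0, so that rate is no baseline for the count. Female replicate 1 held 8 of them, among them Myh7 at 1532 CPM (171 to 555 in the other females), Atp2a2 at 1503 CPM (253.9 to 664.8), the slow fibre genes in sum at 6870 CPM (1020 to 2820), Tenm4 at 21.6 CPM (1.44 to 7.97), Npr3 at 68.7 CPM (6.32 to 20.9), Cd27 at 1.54 CPM (0.138 to 0.641) and Irx3os at 0.889 CPM (0 to 0.243). It also had the highest summed lymphocyte markers among females, at 319 CPM (23.2 to 103). Male replicate 4 stood apart for Odc1 at 706 CPM (344 to 489 in the other males), Cimap1d at 238 CPM (24.0 to 66.2) and Mybph at 153 CPM (34.3 to 63.2). Slc15a5 was at 0.760 CPM in female replicate 3 (0 to 0.187). The summed satellite cell markers were at 38.3 CPM and the summed hepatocyte markers at 110.4 CPM in female replicate 2 (19.4 to 26.4 and 2.69 to 21.5 in the other females). The summed erythroid markers were at 440.1 CPM in male replicate 6 (65.1 to 188).

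Of 15 genes named by size that were measured in both tissues, 13 had a sex difference in muscle that differed from that in liver at an adjusted p of 0.05 or below in edgeR's interaction test, beside 12.3% of all 15275 genes tested. These genes were chosen for large differences in the same muscle libraries, so their number is largely set by that choice and is given as a description. Towards females in muscle, the differences between the tissues were 2.79 for Ak4, 2.66 for Atp2a2, 2.14 for Npr3, 1.90 for Cdo1 and 1.76 for Lhfpl2 (log2). Towards males in muscle they were −6.42 for Slc30a2, −4.15 for Slc15a5, −3.78 for Actr3b, −3.18 for Npnt, −3.15 for Cd27, −3.01 for Amd2, −2.69 for C7 and −2.60 for Amd1. Slc30a2 was higher in females in liver (2.42), opposite to muscle, while Slc15a5 was higher in males in both tissues (−2.40 in liver).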

How the results depend on the processing

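The 2159 calls between the sexes in WT muscle became 2208 with RLE size factors, 2886 with DESeq2, 2159 with no filter on low counts, 2417 with the mitochondrial share as a covariate, 942 when tested against a fold of 1.2, and 1416 to 2375 when 1 library was left out. With covariates or corrections chosen after seeing the data they became 2230 (adipocyte sum), 583 (slow fibre sum), 2233 (counts halved) and 2023 (length and GC content). The Het count ran from 814 to 2225 with 1 library left out, the tissue interaction from 1327 to 2315, and it was 833 with the library labelled liver male WT replicate 5. The genotype interaction stayed at 0 in each setting run. The first principal component separated the sexes in each of 3 alternatives.

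Replicate numbers are shared between the sexes, but libraries with the same number correlated at −0.27 to 0.18 and 1 of 6 females correlated best with its own number. No pairing by number was visible in these values, and whether equal numbers share a day or batch was not tested. With the replicate block the calls were 1439 in WT and 553 in Het, and 1500 in WT with the length and GC correction.

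The receptor list's median of 0.64 was 0.54 to 0.68 with 1 library left out, 0.51 with the slow fibre covariate, 0.45 after the length and GC correction and 0.34 with that correction and the block. The insulin and IGF list's 0.33 was 0.44 with the mitochondrial covariate, 0.50 with the slow fibre covariate, 0.20 after the length and GC correction and 0.18 with the block added. The interferon list was at −0.36 with the adipocyte covariate. With the slow fibre covariate, which is built from these genes, the slow fibre median was −0.23 and the fast fibre median 0.11, and Tnni1 (−0.070), Tpm3 (−0.42), Myl2 (−0.23), Tnnt1 (−0.62), Tnnc1 (−0.55), Sln (−0.20) and Myl3 (−0.23) changed sign. Of 156 called list members and named genes, 52 passed in every setting. The causes of these shifts were not tested beyond the construction of each setting.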
